A study of Mus musculus with 3 samples.

Results

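The lysosomal enzymes and membrane proteins examined here were 40 named genes, found on the array by RefSeq accession, and all 40 of the 40 were measured. They comprise 7 membrane proteins, 11 cathepsins and other proteases, 12 glycosidases and sulfatases, 8 lipid-handling enzymes and cofactors, and 2 transcription factors of lysosomal genes. They stand among 13129 genes with a symbol, or 19328 when features without a symbol are included. RNA came from whole brown adipose tissue, taken at 10 weeks of age from male mice, and was read on 3 two-colour Agilent arrays. Each array paired RNA of 1 Ad-Lkb1 sample, labelled with Cy5, with RNA of 1 wild-type (WT) sample, labelled with Cy3. Lkb1 is another name of Stk11, which encodes liver kinase B1, the kinase that the series title says was deleted. The labels describe the mice as littermates on regular chow and list Ad-Lkb1 mice as C57BL/6J but WT mice as C57BL/6. They do not give the promoter or the cells in which the gene was removed. Genotype, dye and strain name cannot be told apart in this design.

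Lysosomes are acidic organelles that break down proteins, sugars and lipids delivered by endocytosis, phagocytosis and autophagy. Their hydrolases are made in the endoplasmic reticulum and sorted by mannose 6-phosphate receptors, and their membrane carries the proton pump, transporters and heavily glycosylated proteins that line it. Many of the genes carry an E-box, the core of the CLEAR element, in their promoters and are targets of Tfeb, a transcription factor held in check by mTORC1 on the lysosomal surface. Brown adipocytes contain lysosomes as other cells do, and macrophages are particularly rich in several of the cathepsins.

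Values are log2 ratios of Ad-Lkb1 over WT within an array, given as the mean with the SD over 3 arrays, and a level is the normalized log2 intensity of 1 sample. A gene was called higher or lower where limma's p, adjusted by Benjamini-Hochberg over all 19328 features, was under 0.05. Stk11 had levels of 8.36, 8.46 and 8.37 in the Ad-Lkb1 samples, against 9.62, 9.63 and 9.54 in the WT samples, a ratio of -1.20 ± 0.056 (adjusted p = 0.0105). The labels do not say whether its probe lies in the deleted part. The share of features with a signal well above background was 47.7% to 51.3% in the Ad-Lkb1 channel and 46.7% to 46.8% in the WT channel. The ratios correlated across features at r = 0.73 between arrays 1 and 2, 0.36 between arrays 1 and 3, and 0.50 between arrays 2 and 3. The summed level of 13 measured macrophage markers of 14 was 13862, 14047 and 12579 in the Ad-Lkb1 samples of arrays 1 to 3, against 4372, 3696 and 8411 in the WT samples, so the WT sample of array 3 stood above the other WT samples. The summed level of 4 of 5 skeletal muscle markers was 570, 8328 and 7702 in the Ad-Lkb1 samples, against 6845, 1525 and 437 in the WT samples, which ran in opposite directions on array 1 and on the other arrays. All 7 brown adipocyte markers and all 6 general adipocyte markers were measured. Of these, 5 brown adipocyte markers were higher, and none of the adipocyte markers passed (3 had an unadjusted p under 0.05). Arrays were also scaled by their median instead of loess, the intensity-dependent dye correction. Then 2 brown adipocyte markers were higher and 4 adipocyte markers lower, beside 2.01% and 50.2% of all features. With the scanner software's processed signals 2 brown adipocyte markers were higher. In bulk tissue, fewer cells of a type and less RNA per cell cannot be told apart.

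In Ad-Lkb1 tissue 5 members were higher (Ctss, Ctsh, Ctsk, Ctsz and Cd63) and 1 was lower (Npc2), while the other 34 did not pass the test. Of all features, 4.78% were higher and 3.92% lower. An unadjusted p under 0.05 was found for 18 members and for 5671 of the 19328 features. The median ratio of the 40 members was 0.091, beside -0.0099 for all features, and it was 0.26, 0.027 and -0.020 on arrays 1, 2 and 3. The ratio was above 0 for 23 members and below 0 for 17. It kept the same sign above 0 on all 3 arrays for 14 members and below 0 for 8, beside 24% and 27.7% of all features, and had mixed signs for 18. Every Ad-Lkb1 level lay above every WT level for 12 members and below for 7, beside 17.7% and 18.6% of all features, and the groups overlapped for 21. Among the 34 members that did not pass, the median ratio was 0.035, and the 95% interval of the ratio lay within 0.5 log2 units of 0 for 21 and within 1 unit for 30. All 40 were well above background in both channels on all arrays. Scaling decides the direction of many small ratios. With each array centred on its median and no loess, the median of all features was -0.42 and that of the members -0.57, and 3 members were then higher and 24 lower, beside 2.01% and 50.2% of all features. Ctss, Ctsh and Ctsk remained higher and Npc2 lower under that scaling, with ratios of 2.79, 0.75, 0.77 and -1.72, whereas Ctsz (0.12) and Cd63 (0.088) no longer passed.

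**Figure D1:**
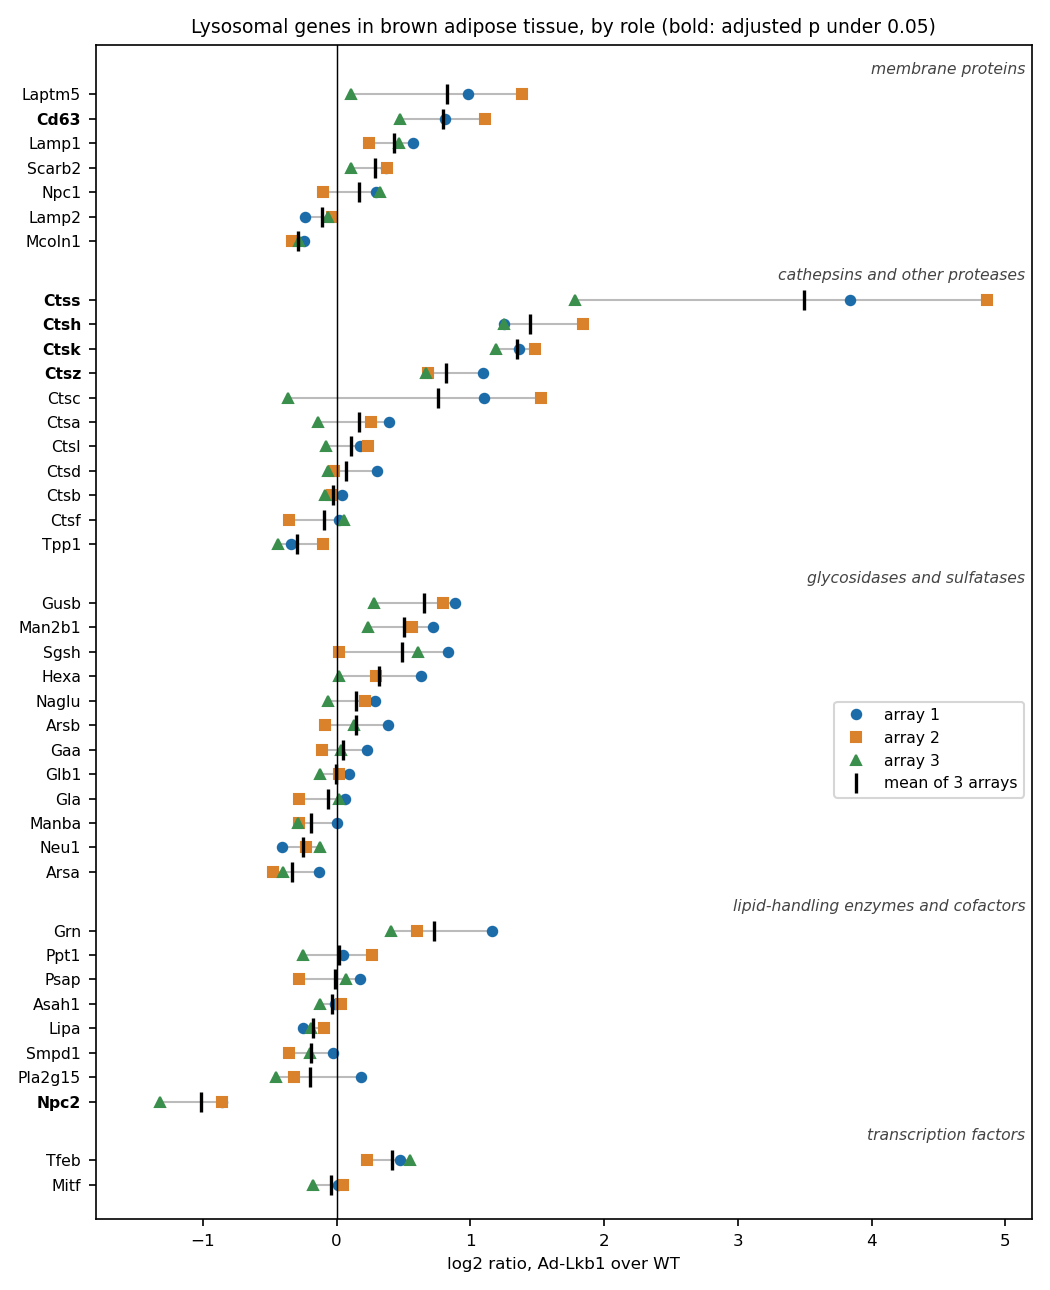
Log2 ratio of Ad-Lkb1 over WT (x axis) of the 40 members (rows, grouped by role) on arrays 1 to 3, with a black bar at the mean and bold names for members past the threshold. Ctss spans 1.78 to 4.87, Ctsh and Ctsk lie above 1 on every array and Npc2 lies below -0.8 on every array; with median centring in place of loess Ctsz and Cd63 do not pass.

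The E-box members are shown first because the motif links the hydrolases to Tfeb. RefSeq (assembly GRCm38.p6) gave promoters, 250 bases before to 50 after the gene start, for 36 of the 40 members; Npc1, Ctsb, Ctsh and Asah1 were not among them. The letters TCACGTG, searched on both strands, occurred in the promoters of 10 of these 36 (27.8%), beside 4.29% of 27025 genes and 3.77% of 32851 promoters of the same length. The shorter core CACGTG, which is contained in TCACGTG, occurred in 12 members (33.3%) beside 8.09% of genes and 7.15% of promoters. Capitals below mark TCACGTG on either strand, within a stretch of the promoter on the gene's own strand.
Lamp1 (chr8:13159082-13159122, plus strand): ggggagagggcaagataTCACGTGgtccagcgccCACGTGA
Mcoln1 (chr8:3500430-3500470, plus strand): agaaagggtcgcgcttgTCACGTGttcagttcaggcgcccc
Ctsa (chr2:164833743-164833783, plus strand): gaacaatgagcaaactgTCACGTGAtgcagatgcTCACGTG
Ctsd (chr7:142388049-142388077, minus strand): tccccCACGTGAcctgtatccagtcattc
Gaa (chr11:119267805-119267845, plus strand): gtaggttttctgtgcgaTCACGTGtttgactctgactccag
Gla (chrX:134601210-134601250, minus strand): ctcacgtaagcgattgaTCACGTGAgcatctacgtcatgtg
Glb1 (chr9:114401012-114401052, plus strand): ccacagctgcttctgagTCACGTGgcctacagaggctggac
Naglu (chr11:101070003-101070043, plus strand): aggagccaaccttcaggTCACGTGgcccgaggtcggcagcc
Sgsh (chr11:119355516-119355556, minus strand): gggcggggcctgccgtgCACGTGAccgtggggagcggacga
Arsa (chr15:89477418-89477458, minus strand): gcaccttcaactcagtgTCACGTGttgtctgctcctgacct
None of these 10 members passed limma's test after adjustment. An unadjusted p under 0.05 was found for 4 of them, as for 18 of all 40 members and 5671 of all 19328 features. Their ratios ran between -0.34 for Arsa and 0.49 for Sgsh with a median of 0.061, against 0.13 for the 26 members without the motif. With median centring all 10 ratios were below 0, and these medians were -0.61 and -0.41. The median was then -0.57 for all 40 members and -0.42 for all features.

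Among the membrane proteins, Cd63, a tetraspanin of late endosomes and lysosomes, was higher and none was lower. The median ratio of the 7 was 0.29, or -0.34 with median centring. That scaling left 0 higher and 3 lower, beside 2.01% and 50.2% of all features. Cd63 had levels of 11.52, 11.80 and 11.51 in the Ad-Lkb1 samples, against 10.71, 10.69 and 11.04 in the WT samples. The groups did not overlap, and the smallest difference was on array 3. The ratio was 0.80 ± 0.32 (SD, n = 3; 1.74-fold; limma adjusted p = 0.043). Lamp1, a major glycoprotein of the lysosomal membrane, had levels of 14.49, 14.46 and 14.50 in Ad-Lkb1, against 13.92, 14.22 and 14.03 in WT. Its groups did not overlap, but the ratio of 0.43 (95% interval 0.19 to 0.67) did not pass (limma adjusted p = 0.062). Lamp2, its partner protein that also serves chaperone-mediated autophagy, had a ratio of -0.11 (-0.32 to 0.096). A second, dimmer probe of Lamp2 had a mean ratio of 0.082.

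Laptm5, a lysosomal protein of blood cells, showed the widest spread of the membrane proteins. Its levels were 7.78, 8.03 and 7.92 in the Ad-Lkb1 samples, against 6.80, 6.64 and 7.82 in the WT samples. The Ad-Lkb1 levels were close together, and the WT sample of array 3 lay within their range. The ratio of 0.82 ± 0.65 did not pass (limma adjusted p = 0.12). Leaving out array 3 gave 1.18 (limma adjusted p = 0.015), whereas leaving out array 1 or 2 gave 0.75 or 0.54 and no call, and a second, dimmer probe had a mean ratio of 0.44. Scarb2, the receptor that carries glucocerebrosidase to the lysosome, had a ratio of 0.29 (0.054 to 0.52). Npc1, which exports cholesterol from the lysosome, had 0.17 (-0.12 to 0.47). Mcoln1, a calcium channel of the lysosomal membrane, had the smallest spread of this group, with ratios of -0.24, -0.34 and -0.28 (limma adjusted p = 0.074).

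Of the 11 proteases 4 were higher and none lower, with a median ratio of 0.17. With median centring 3 were higher and 6 lower, beside 2.01% and 50.2% of all features, and the median of the 11 was -0.54. Ctss, a cysteine protease that trims the invariant chain in antigen-presenting cells, had the largest ratio of all members. Its levels were 11.89, 12.19 and 11.72 in Ad-Lkb1, against 8.05, 7.33 and 9.94 in WT. The Ad-Lkb1 samples were close together and far above each WT sample, and the WT sample of array 3 was the highest of its group. The ratio was 3.50 ± 1.57 (11.3-fold, 95% interval 1.89 to 5.10, limma adjusted p = 0.042). It was 3.32, 2.81 and 4.35 without arrays 1, 2 and 3, with adjusted p of 0.21, 0.15 and 0.0052. Ctsh, an aminopeptidase of the same family, had levels of 10.51, 10.70 and 10.56 in Ad-Lkb1, against 9.26, 8.86 and 9.31 in WT. The groups were more than 1 log2 unit apart on each array, with a ratio of 1.45 ± 0.34 (2.73-fold, limma adjusted p = 0.018).

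Ctsk, the collagen-degrading protease best known from osteoclasts, had levels of 8.97, 8.89 and 8.72 in Ad-Lkb1, against 7.60, 7.40 and 7.53 in WT. It had the smallest p of the members and a narrow spread, with a ratio of 1.35 ± 0.15 (2.55-fold, limma adjusted p = 0.011). Ctsz, a carboxypeptidase, had levels of 14.05, 13.98 and 13.92 in Ad-Lkb1, against 12.95, 13.30 and 13.25 in WT. No sample crossed between the groups, and the ratio was 0.82 ± 0.25 (1.76-fold, limma adjusted p = 0.030). With the scanner software's processed signals in place of the median signals, or with no filter on dim probes, Ctsh and Ctsk were the only members that passed. Of all features, 2.73% were then higher and 1.44% lower with processed signals, and 1.47% and 1.34% with no filter. The deposited value table left the same 2 members, beside 2.72% higher and 1.45% lower. Without array 1 or without array 2 no member passed, nor did any other feature (0%), although 15 and 14 members had an unadjusted p under 0.05, and without array 3 the count was 10 higher and 1 lower, beside 6.89% and 3.73%.

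**Figure D2:**
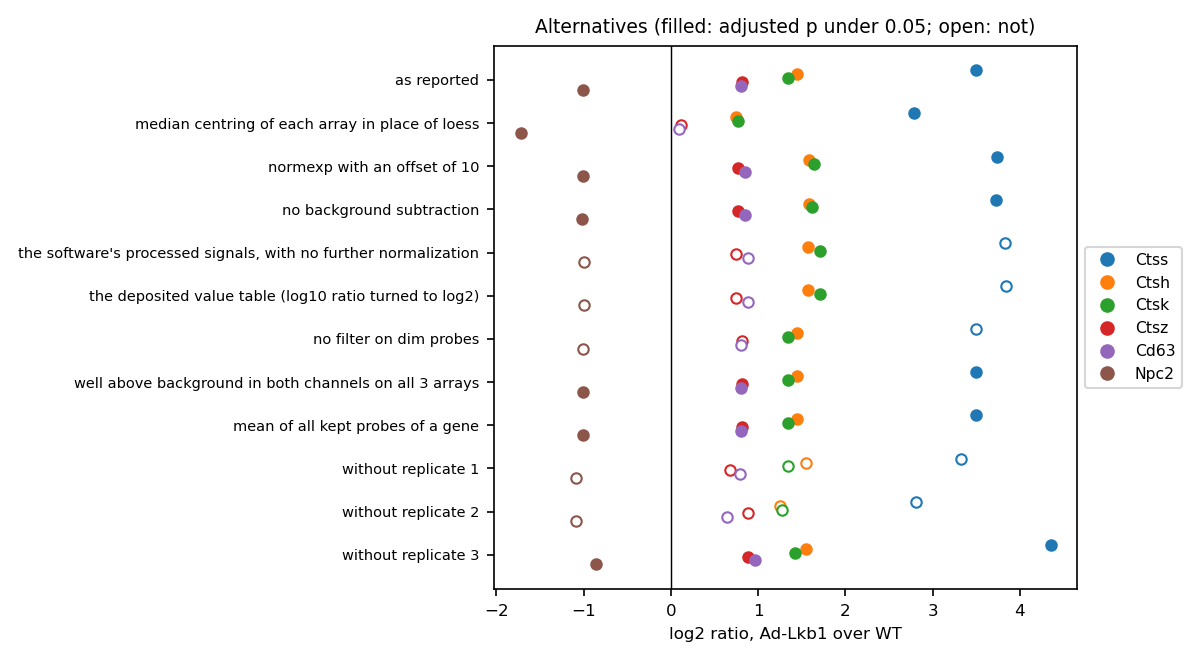
Log2 ratio of Ad-Lkb1 over WT (x axis) of the 6 members that passed, as reported (top row) and under 11 other settings (rows), with filled points where the adjusted p is under 0.05 and open points where it is not. Every point keeps its side of 0, and Ctsh and Ctsk are filled under 9 of the 11 settings. All points are open without array 1 or without array 2 (named replicates in the row labels). The filter on both channels and the mean of all kept probes use the same probe of each member, so those points could not move.

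Ctsc, which activates the serine proteases of leukocyte granules, did not pass. Its levels were 8.23, 8.33 and 8.02 in Ad-Lkb1, against 7.13, 6.81 and 8.38 in WT. The WT sample of array 3 exceeded every Ad-Lkb1 sample, so array 3 had a ratio of -0.36, beside 1.11 on array 1 and 1.53 on array 2. The mean ratio was 0.76 ± 0.99 (limma adjusted p = 0.28). Leaving out arrays 1, 2 and 3 gave 0.58, 0.37 and 1.32 (adjusted p = 0.60, 0.69 and 0.012). Ctsb, Ctsd and Ctsl, the broadly expressed cathepsins that carry out much of bulk proteolysis, had ratios of -0.025 (95% interval -0.21 to 0.16), 0.072 (-0.19 to 0.34) and 0.11 (-0.13 to 0.35). Their samples overlapped between the groups. A second, dimmer probe of Ctsd had a mean ratio of -0.032. Ctsa, a carboxypeptidase that protects Glb1 and Neu1, had a ratio of 0.17, Ctsf, another cysteine protease, -0.094, and Tpp1, which removes tripeptides from protein ends, -0.29. The interval of Tpp1 was -0.54 to -0.048, and its adjusted p was 0.12.

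**Figure D3:**
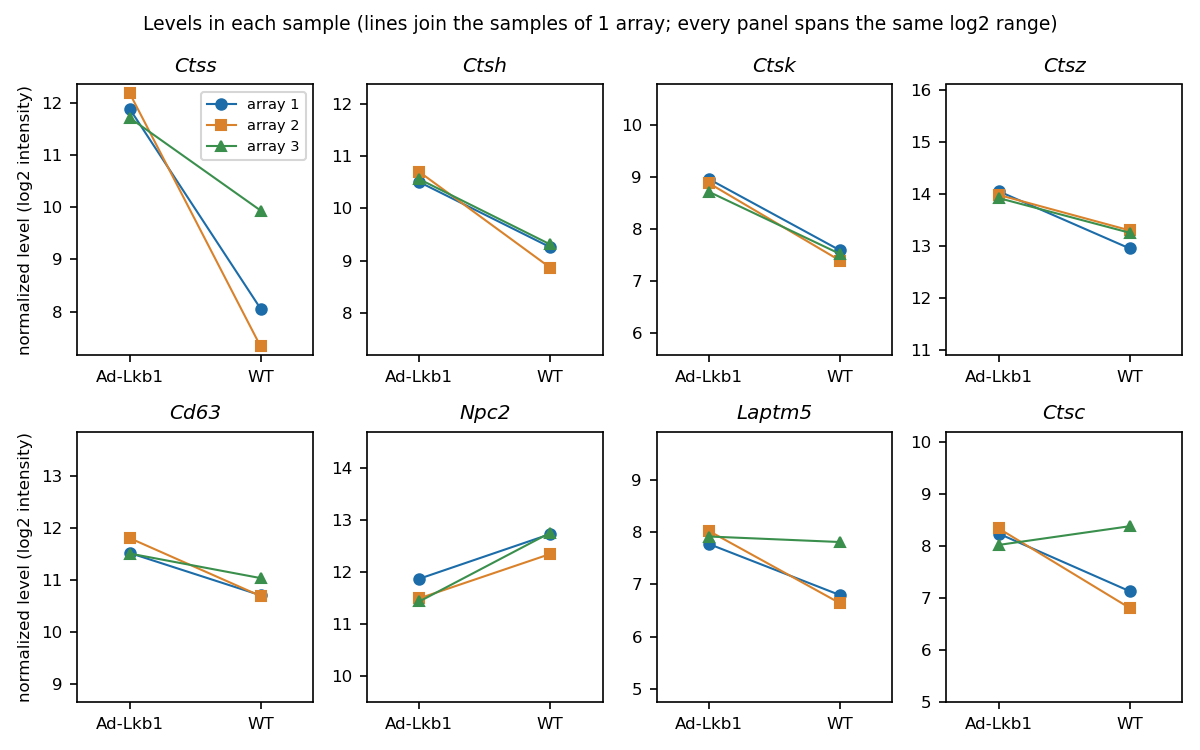
Normalized log2 levels (y axis, each panel spanning the same number of log2 units) in the Ad-Lkb1 sample (left) and the WT sample (right) of each array, joined by a line, for the 6 members that passed and for Laptm5 and Ctsc. The WT sample of array 3 is the highest WT sample for Ctss (9.94), Laptm5 (7.82) and Ctsc (8.38); with median centring Ctsz and Cd63 do not pass.

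Markers of macrophages are set beside these genes. Of 13 measured, 5 were higher (Adgre1 1.88, Mrc1 1.63, Lyz2 2.18 and Tyrobp 2.24 are the 4 with the smallest p) and none was lower, and their median ratio was 1.62, 2.04 and 0.56 on arrays 1 to 3. With median centring 4 were higher and 1 lower, and the median of their mean ratios was 0.67. With processed signals 2 were higher. Ctss had ratios of 3.84, 4.87 and 1.78 on the same arrays, Laptm5 0.98, 1.39 and 0.11, and Cd63 0.81, 1.11 and 0.47. Ctsk had 1.37, 1.49 and 1.19, Ctsh 1.25, 1.84 and 1.25, and Ctsz 1.10, 0.68 and 0.67. Itgam had a ratio of -0.093 and Cd163 did not pass the filter on dim probes. Of 5 fibroblast markers 4 were higher, and their summed level was 16715 to 22631 in Ad-Lkb1 samples, against 9309 to 10922 in WT samples. With median centring 2 fibroblast markers were higher, and 2 with processed signals. Of 4 neutrophil markers 2 were higher, of 5 mast cell markers 3 were higher and 1 was lower, of 5 endothelial markers 1 was lower, and none of 2 lymphocyte and 4 skeletal muscle markers passed (0 of either at an unadjusted p under 0.05). Of the mast cell markers called higher, 1 (Cma1) was not well above background in WT on any array and so entered the test through the Ad-Lkb1 channel alone. With median centring 3 neutrophil markers were higher (0 with processed signals), and 3 mast cell markers were higher and 1 lower. That scaling also left 4 endothelial markers, 1 lymphocyte marker and 0 muscle markers lower. Of all features, 2.01% were then higher and 50.2% lower. The part of these cells in the lysosomal ratios was not tested.

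The promoters of the 4 called members with the smallest p among those 36 are shown because these members moved. Capitals mark the letters GAGGAAG on either strand, a core bound by PU.1, the transcription factor of myeloid cells. Neither TCACGTG nor these letters contain the other.
Ctsk (chr3:95498960-95499259, plus strand): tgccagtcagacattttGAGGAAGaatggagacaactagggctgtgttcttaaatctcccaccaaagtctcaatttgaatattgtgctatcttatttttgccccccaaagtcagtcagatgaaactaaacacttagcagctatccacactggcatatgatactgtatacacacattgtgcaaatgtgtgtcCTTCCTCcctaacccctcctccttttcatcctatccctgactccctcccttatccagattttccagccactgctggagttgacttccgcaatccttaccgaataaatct
Ctss (chr3:95526536-95526835, plus strand): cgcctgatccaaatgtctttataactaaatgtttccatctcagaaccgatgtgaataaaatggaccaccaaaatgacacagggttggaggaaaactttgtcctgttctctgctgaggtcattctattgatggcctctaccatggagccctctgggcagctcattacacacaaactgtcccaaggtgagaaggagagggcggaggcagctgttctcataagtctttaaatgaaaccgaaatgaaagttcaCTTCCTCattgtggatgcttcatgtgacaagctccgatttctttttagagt
Ctsz (chr2:174438990-174439289, minus strand): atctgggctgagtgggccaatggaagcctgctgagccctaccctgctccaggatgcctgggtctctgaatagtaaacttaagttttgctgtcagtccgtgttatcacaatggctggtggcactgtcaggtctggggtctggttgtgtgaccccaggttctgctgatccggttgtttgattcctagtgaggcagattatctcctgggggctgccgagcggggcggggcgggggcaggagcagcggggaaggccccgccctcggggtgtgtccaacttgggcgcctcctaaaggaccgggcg
Npc2 (chr12:84773063-84773362, minus strand): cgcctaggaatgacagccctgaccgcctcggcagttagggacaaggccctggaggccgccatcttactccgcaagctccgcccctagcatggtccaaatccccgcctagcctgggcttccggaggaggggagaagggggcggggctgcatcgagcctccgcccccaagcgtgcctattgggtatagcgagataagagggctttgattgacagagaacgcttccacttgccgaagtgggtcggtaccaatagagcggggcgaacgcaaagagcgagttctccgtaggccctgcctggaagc
The letters were found in the printed windows of Ctsk and Ctss and not in those of Ctsz and Npc2. Over the 36 members they occurred in 9 (25%), beside 15.4% of genes and 13.6% of promoters. The 9 were Cd63, Ctsc, Ctsk, Ctss, Gla, Gusb, Laptm5, Lipa and Man2b1. Of these, 3 were higher, and the median ratio of the 9 was 0.76, against 0.021 for the other 27. With median centring these medians were 0.088 and -0.61. The letters were chosen with earlier results of these data known, so these medians are no independent evidence of a link. A match of these letters is a description of the window and not a bound site.

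None of the 12 glycosidases and sulfatases passed limma's test after adjustment, although 5 had an unadjusted p under 0.05, as did 5671 of all 19328 features. The median ratio of the 12 was 0.096. With median centring 8 were lower, beside 50.2% of all features, and the median was -0.52. Gusb, which removes glucuronic acid from glycosaminoglycans, had levels of 9.73, 9.71 and 9.35 in Ad-Lkb1, against 8.85, 8.92 and 9.07 in WT. The groups did not overlap, and the ratio was 0.65 (95% interval 0.28 to 1.02, limma adjusted p = 0.063). Man2b1, a mannosidase of glycoprotein breakdown, had levels of 10.09, 9.99 and 10.05 in Ad-Lkb1, against 9.37, 9.43 and 9.82 in WT. These groups did not overlap either, and the ratio was 0.51 (0.20 to 0.81, limma adjusted p = 0.068). Both passed when array 3 was left out, with ratios of 0.84 and 0.64. Without array 1 they were 0.54 and 0.40, without array 2 0.58 and 0.48, and neither passed, and with median centring both were below 0 (-0.022 and -0.19).

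Sgsh and Naglu act in the breakdown of heparan sulfate and had ratios of 0.49 and 0.15. Sgsh had a second probe with a mean ratio of -0.14. Hexa, a subunit of the hexosaminidase that breaks down gangliosides, had a ratio of 0.32 (-0.039 to 0.67). Gaa, the enzyme of lysosomal glycogen breakdown, had a ratio of 0.050 (-0.20 to 0.30), Gla, which cleaves galactose from globosides, -0.065 (-0.32 to 0.19), and Glb1, the galactosidase of gangliosides and keratan sulfate, -0.0041 (-0.21 to 0.20). For each of these 3 enzymes the interval stayed within 0.5 log2 units of 0. Arsa, which removes sulfate from sulfatides, had ratios of -0.13, -0.48 and -0.40 (limma adjusted p = 0.10). Neu1, a sialidase, had -0.40, -0.23 and -0.12 (limma adjusted p = 0.14). In both genes every Ad-Lkb1 sample lay below every WT sample. Arsb, a sulfatase of dermatan sulfate, had a ratio of 0.14 with its brighter probe and -0.14 with the other, and Manba, a mannosidase acting at the end of glycan breakdown, had -0.19.

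Npc2 was the only lipid-handling member that passed, and none was higher. The median ratio of these 8 was -0.11, or -0.76 with median centring. That scaling left 6 lower, beside 50.2% of all features. Npc2 is a soluble protein that binds cholesterol in the lysosome and hands it to Npc1. Its levels were 11.86, 11.49 and 11.43 in the Ad-Lkb1 samples, against 12.72, 12.34 and 12.75 in the WT samples. All Ad-Lkb1 samples lay below all WT samples. The ratio was -1.01 ± 0.27 (2.01-fold higher in WT, 95% interval -1.33 to -0.69, limma adjusted p = 0.025). Npc2 remained below 0 under each alternative run, between -1.72 and -0.86, and passed under 6 of 11. Its membrane partner Npc1 had ratios of 0.29, -0.10 and 0.32 and did not pass.

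Grn encodes progranulin, a secreted and lysosomal protein that is cut into granulins. It had levels of 11.14, 10.93 and 10.80 in Ad-Lkb1, against 9.97, 10.33 and 10.39 in WT. The groups did not overlap, but the ratio fell short of the threshold at 0.73 ± 0.39 (limma adjusted p = 0.069). Leaving out arrays 1, 2 and 3 gave 0.51, 0.79 and 0.88 (adjusted p = 0.16, 0.22 and 0.042), and with median centring the ratio was 0.015 (adjusted p = 0.93). Lipa, the acid lipase that frees fatty acids from cholesteryl esters and triglycerides, had ratios of -0.25, -0.094 and -0.19. Its interval of -0.37 to 0.012 included 0. Psap, the precursor of the saposins, had a ratio of -0.010 (-0.31 to 0.29), Asah1, the acid ceramidase, -0.035 (-0.23 to 0.16), and Ppt1, which removes palmitate from proteins, 0.021 (-0.29 to 0.34). Smpd1, the acid sphingomyelinase, had -0.19 (-0.43 to 0.048), and Pla2g15, a lysosomal phospholipase, -0.19 (-0.57 to 0.19). The samples of these 5 genes overlapped between the groups. A second, dimmer probe of Asah1 had a mean ratio of 0.012.

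Neither of the transcription factors passed, and 1 of them, Tfeb, had an unadjusted p under 0.05. Tfeb had levels of 7.59, 7.42 and 7.58 in Ad-Lkb1, against 7.12, 7.18 and 7.03 in WT. The groups did not overlap, and the ratio was 0.42 (95% interval 0.18 to 0.66, limma adjusted p = 0.064). With a smaller offset in the background correction, 10 in place of 50, the ratio was 0.62 and passed (limma adjusted p = 0.0496), as did 5.52% of all features upward and 2.73% downward, whereas with median centring it was -0.018. Mitf, a related factor with a role in melanocytes and osteoclasts, had a ratio of -0.039 (-0.25 to 0.17). The arrays measure RNA, and Tfeb is regulated largely by where the protein is held in the cell.

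Genes of the lysosome outside the 40 were also read, and 69 of 73 were measured. Of these, 4 were higher (3 without Atp6v0d2, described with the proton pump) and 1 was lower, beside 4.78% and 3.92% of all features. The median ratio of the 69 was -0.079, with 21 above 0 and 48 below. With median centring 2 were higher and 54 lower, beside 2.01% and 50.2% of all features. Cd68, a heavily glycosylated lysosomal protein of macrophages, had levels of 10.74, 10.91 and 10.53 in Ad-Lkb1, against 8.33, 8.12 and 8.99 in WT. The groups did not overlap, with a ratio of 2.24 ± 0.64 (limma adjusted p = 0.023). Lgmn, an asparagine-specific protease, had 11.76, 11.72 and 11.55 in Ad-Lkb1, against 10.82, 10.85 and 10.83 in WT, a ratio of 0.84 ± 0.11 (limma adjusted p = 0.017). With median centring Lgmn was not called higher. The genes called higher under that scaling were 1 V-ATPase gene and 1 other membrane protein. Cln8, a membrane protein that takes part in the transport of lysosomal enzymes out of the endoplasmic reticulum, had 0.40 (limma adjusted p = 0.048), and Tmem55b, now named Pip4p1, a lysosomal membrane protein that takes part in lysosome positioning, had -0.45 (limma adjusted p = 0.046).

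The proton pump was measured through 17 V-ATPase subunits and accessory proteins, with a median ratio of -0.042. Of the 16 that were well above background in WT on at least 1 array, none passed. The other was Atp6v0d2, known from osteoclasts and macrophages, which was not well above background in WT on any array. Its mean ratio was 1.47 (2.77-fold higher in Ad-Lkb1), with 1.29, 1.84 and 1.28 on arrays 1 to 3. This fold is an estimate and not a lower bound, and it is open to dye bias. Atp6v0d2 entered the test through the channel in which it is high, so its limma adjusted p of 0.017 is no independent evidence of a change. Of the 19 other hydrolases and activators 1 was higher (Lgmn), with a median of -0.041. Of 16 measured of 17 other membrane proteins 2 were higher and 1 lower, with a median of -0.088. None of the 6 genes of mannose 6-phosphate tagging and sorting passed (1 at an unadjusted p under 0.05), with a median of -0.18, and Sort1 (-0.27) and Nagpa (-0.26) had the smallest p. None of 10 measured of 12 nutrient-sensing genes at the lysosome passed (3 at an unadjusted p under 0.05). Their median was -0.12 with 9 below 0, and Lamtor4 (-0.36, limma adjusted p = 0.059) and Lamtor2 (-0.77, limma adjusted p = 0.087), subunits of the Ragulator scaffold, had the smallest p. Tfe3, a relative of Tfeb, had 0.23 (limma adjusted p = 0.11) and Tfec was not measured. With median centring 13 V-ATPase genes, 12 other hydrolases, 13 other membrane proteins, all 6 sorting genes, 9 nutrient-sensing genes and Tfe3 were lower. The list medians were then between -0.83 and -0.47, and 50.2% of all features were lower.

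**Figure D4:**
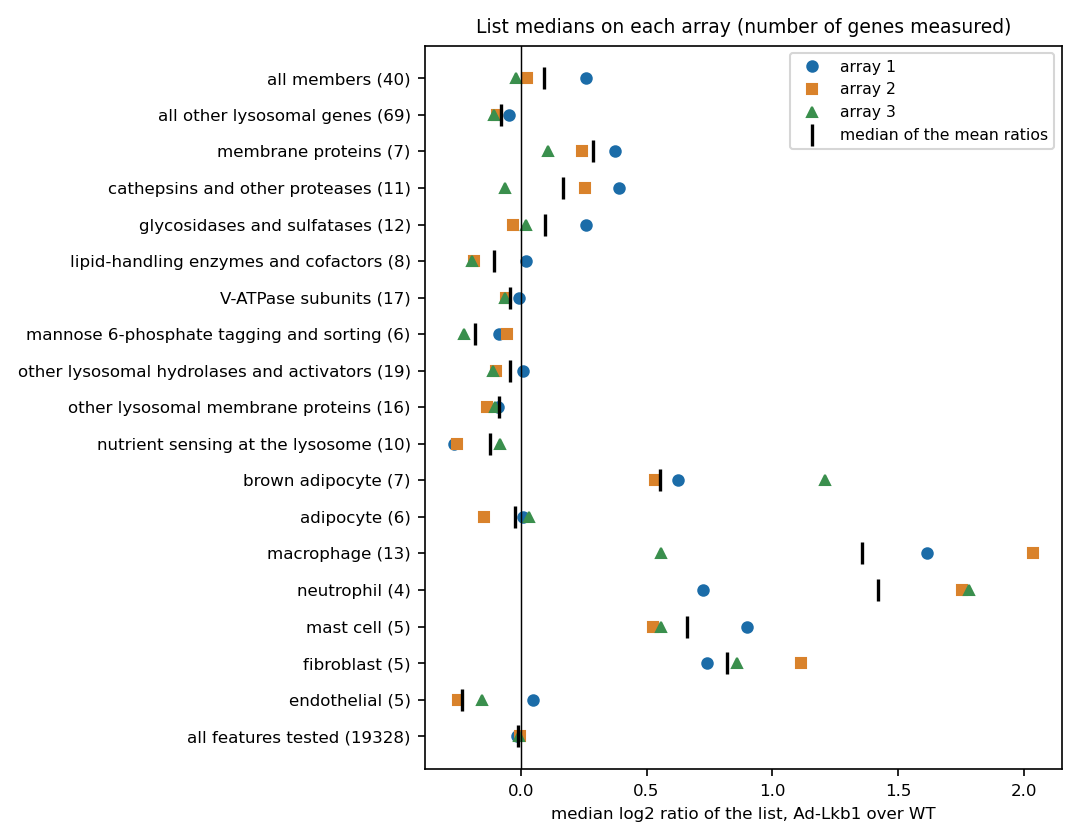
Median log2 ratio of Ad-Lkb1 over WT (x axis) of each gene list on arrays 1 to 3, with the number of measured genes in parentheses and a black bar at the median of the genes' mean ratios; lymphocyte, skeletal muscle and transcription factor lists (members and others) are left out. The lysosomal lists lie within 0.4 log2 units of 0 on every array, the macrophage list lies at 1.62, 2.04 and 0.56, and with median centring the median of all features is -0.42.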

How the data were processed

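The deposited scanner files hold median spot and background intensity in both channels, processed intensity, and the log10 of the red to green ratio, per the file headers. They were made with Agilent Feature Extraction 11.5, per the submitters' processing notes. The deposited value table matched that log10 ratio by feature number (largest difference 0.00494), and its column medians were 0. Direction (Cy5 over Cy3) and log10 scale are thus known. The software had set 26.8% to 27.8% of the ratios to 0, so column medians of 0 do not show how the table was centred.

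Ratios were computed with limma 3.58.1 in R 4.3.3 from the median signals: normexp (offset 50), loess per array (control spots at weight 0), outlier spots removed and spots of a probe averaged. The offset understates folds of dim genes. A probe was kept if well above background, in at least 0.5 of its spots, in 1 channel or more on all 3 arrays, which left 25031 of 55680 probes. Symbols came from RefSeq accessions: of 29796 probes with one, 28026 matched 1 symbol. The brightest kept probe stood for a gene. Of the members, 32 had 1 kept probe and 8 had 2, and of these 8, 5 had probes of opposite sign. None of the 8 was called. Every called member had 1 kept probe, so no second probe could check its call. The log2 ratio was tested against 0 with lmFit and eBayes, two-sided, with Benjamini-Hochberg adjustment over 19328 features. Levels are log2 values per channel after loess and Aquantile, from deposited intensity values. The procedure was also run on simulated data with few changed genes, up and down alike, and a simple dye curve. That run could not decide between loess and median centring for these arrays. The file headers name mm9 as the array's build, so coordinates are given for RefSeq promoters alone.

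Named genes were all members, Stk11, and of each other list those past the threshold (up to 4 by smallest p) or the 2 with the smallest p; of most marker lists counts are given instead. The members, lists and motifs were chosen with earlier results of these data known. The labels call the samples biological replicates; 3 arrays, all from 1 slide and 1 scan with the same dye orientation, limit the precision. Alternatives were median centring, an offset of 10, no background subtraction, processed signals, the value table, no filter or a filter on both channels, the mean of all kept probes, and leaving out each array.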

Additional observations from a re-analysis of the deposited data

How the results depend on the processing

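Directions held for the 6 called members under all 11 alternatives. No call changed with the filter on both channels, the mean of all kept probes or no background subtraction. Each of the 6 has 1 kept probe, well above background in both channels, so that filter and that mean reuse the same ratios. Their directions were thus fixed in advance there. Ctss, Ctsh, Ctsk, Ctsz and Cd63 also kept the same ratios with no filter, and the value table nearly repeats the processed signals. Of all features, 10097 passed with median centring, 807 with processed signals, 806 with the deposited value table, 1033 with no filter, and 0 to 2052 with 1 array left out. Members higher numbered 3 with median centring, 2 with each of processed signals, the value table and no filter, and 0 to 10 with 1 array left out; members lower numbered 24 with median centring, 0 with each of the other 3, and 0 to 1 with 1 array left out. Without array 1 or array 2 limma called 0 features, while 3928 and 3563 features, 15 and 14 members among them, had an unadjusted p under 0.05. With the value table or processed signals, 13 members had an unadjusted p under 0.05, and with no filter 18. Without array 3, Ctsc, Grn, Gusb, Laptm5 and Man2b1 were added. Other lysosomal genes higher numbered 2 with median centring or no filter and 0 to 3 with 1 array left out; lower, 54 with median centring, 0 with an offset of 10, no background subtraction, processed signals or the value table, and 0 to 2 with 1 array left out. The median of the members was -0.57 with median centring. Ratios that turned below 0 with median centring were those of Lamp1 (-0.26), Scarb2 (-0.42), Npc1 (-0.34), Ctsa (-0.54), Ctsd (-0.62), Ctsl (-0.60), Hexa (-0.39), Gaa (-0.66), Gusb (-0.022), Naglu (-0.43), Sgsh (-0.21), Arsb (-0.092), Man2b1 (-0.19), Ppt1 (-0.41) and Tfeb (-0.018). With an offset of 10 or no background subtraction Ctsd turned to -0.019 or -0.016, Glb1 to 0.069 or 0.051, Asah1 to 0.036 in both, and Mitf to 0.027 or 0.029. With processed signals or the value table Ctsd was -0.114 in both, Glb1 0.021 or 0.022, and Ppt1 -0.051 or -0.053. With 1 array left out the sign varied for Ctsb (-0.058 to 0.0048), Ctsd (-0.041 to 0.14), Ctsf (-0.17 to 0.038), Gaa (-0.041 to 0.13), Gla (-0.13 to 0.042), Glb1 (-0.052 to 0.057), Asah1 (-0.067 to 0.011), Psap (-0.10 to 0.12), Ppt1 (-0.10 to 0.16) and Mitf (-0.082 to 0.031). No filter tests more features (36794), and leaving out an array tests fewer samples; otherwise the cause was not tested. The test of within-array ratios is itself paired by array. Beyond it, no paired analysis was possible because each array gives 1 ratio, which leaves no replicate block to add. Signal over background limits dim genes: the median signal of Ad-Lkb1 was 21 to 23 over a background of 17, and that of WT 51 to 53.5 over 43 to 44.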
